A study of Mus musculus with 24 samples.

Results

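The G1 cell cycle genes examined here were the 3 D-type cyclins (*Ccnd1*, *Ccnd2* and *Ccnd3*), their partner kinases *Cdk4* and *Cdk6*, the CIP/KIP inhibitors *Cdkn1a* and *Cdkn1b*, and the INK4 inhibitors *Cdkn2a*, *Cdkn2b* and *Cdkn2c*. They were taken by name from the deposited gene table and make up 10 of its 55487 genes, and all 10 were among the 15401 genes with enough counts to be tested. mRNA was sequenced from mouse embryonic fibroblasts (MEFs), either wild type (WT) or lacking both *Tfeb* and *Tfe3* (*tfeb tfe3* DKO), the genes of a pair of MiT/TFE transcription factors. Cells of each genotype received the vehicle DMSO (0.1%), the catalytic MTOR inhibitor torin1 (100 nM) or the AMPK activator MK-8722 (10 µM), which gives 6 groups of 4 libraries. The doses come from the study's methods, and the treatment time for sequencing and the mouse strain are not given in the sources used here. The 4 libraries of a group differ in culture passage, which was 7, 8, 9 and 11 in WT and 8, 9, 10 and 11 in DKO. Each genotype was 1 MEF line obtained from another laboratory, so genotype and line cannot be told apart, and cultures of 1 line at different passages are the only replicates.

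D-type cyclins are made in response to growth factors and nutrients, bind CDK4 or CDK6 and start the phosphorylation of the retinoblastoma protein, which frees E2F transcription factors to switch on genes for DNA replication. INK4 proteins bind CDK4 and CDK6 directly and keep the cyclin away, whereas the CIP/KIP proteins p21 (*Cdkn1a*) and p27 (*Cdkn1b*) hold cyclin E-CDK2 in check and can also assemble D-type cyclin complexes. *Cdkn2a* encodes 2 unrelated proteins from alternative first exons, the INK4 protein p16 and ARF, which stabilizes p53, and cultured fibroblasts are known to gather INK4 and ARF products as they are passaged.

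RefSeq promoter windows (250 bases before to 50 after a start, build GRCm38.p6) were at hand for 8 of the 10 members, all but *Ccnd1* and *Ccnd2*. The letters searched on both strands were the E-box CACGTG, the longer form TCACGTGA that MiT/TFE factors are known to prefer, the FOXO motif TGTTTAC and the E2F motifs TTTCCCGC, TTTGGCGC, TTTCGCGC and TTTGCCGC. CACGTG lies within TCACGTGA. Of 32851 windows, 7.15% held CACGTG, 0.974% TCACGTGA, 3.65% TGTTTAC and 1.07% TTTCCCGC. Among the 12 windows of members, CACGTG was found for *Cdk4*, *Cdk6* and *Cdkn2c*, TGTTTAC for *Ccnd3* and TTTCCCGC for the ARF start of *Cdkn2a*, and the other letters were found in none. Upstream sequences are printed for *Cdk4*, whose drug responses differed between the genotypes, and for both starts of *Cdkn2a*, whose transcripts are described separately. Each is written 5′ to 3′ on the gene's strand, without bases that GENCODE places in a first exon, and capitals mark a match. They are *Cdk4* at chr10:127063285-127063533 (plus strand), the ARF start at chr4:89294654-89294869 (minus strand) and the p16 start at chr4:89282193-89282442 (minus strand).
Cdk4: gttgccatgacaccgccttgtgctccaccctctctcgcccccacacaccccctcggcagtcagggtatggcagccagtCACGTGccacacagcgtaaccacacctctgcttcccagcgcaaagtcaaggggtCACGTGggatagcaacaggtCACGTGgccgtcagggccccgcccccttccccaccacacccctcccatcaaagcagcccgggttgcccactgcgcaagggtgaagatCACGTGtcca
Cdkn2a, ARF start: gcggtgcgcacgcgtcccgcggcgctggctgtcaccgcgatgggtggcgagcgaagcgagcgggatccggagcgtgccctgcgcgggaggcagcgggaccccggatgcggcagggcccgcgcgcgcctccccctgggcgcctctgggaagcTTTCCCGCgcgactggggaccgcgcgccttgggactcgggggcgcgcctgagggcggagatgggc
Cdkn2a, p16 start: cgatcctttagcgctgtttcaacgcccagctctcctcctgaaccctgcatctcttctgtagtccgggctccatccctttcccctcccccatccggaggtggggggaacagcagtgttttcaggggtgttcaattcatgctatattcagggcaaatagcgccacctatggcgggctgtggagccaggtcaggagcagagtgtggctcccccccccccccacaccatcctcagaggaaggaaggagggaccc
The *Cdk4* sequence held CACGTG 4 times, with first bases at -172, -118, -98 and -11 from the RefSeq start. At least 4 copies were present in 8 of the 32851 windows, or 0.0244%, a count made after the matches were seen. The ARF start had TTTCCCGC at -99, and the p16 start had none of the letters. These are matches of letters and do not show that a factor binds there.

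Total estimated counts per library ranged from 24668921 to 33332562. The RNA integrity number was 7.9 in replicate 3 of DKO with MK-8722 and 9.7 to 9.9 in the other libraries. *Tfeb*, the targeted gene whose mRNA was reduced, averaged 22.9 CPM (counts scaled to a fixed library size) in WT with DMSO and 2.25 in *tfeb tfe3* DKO with DMSO, whereas *Tfe3* mRNA averaged 120.2 and 123.6 CPM, so its level does not check the label. Each group had 9 of 10 fibroblast markers at a mean of at least 1 CPM, with a summed level of 7140 to 10690 CPM. The marker below it was *Postn* in the WT groups (0.242 to 0.438 CPM) and *Thy1* in the DKO groups, where it had at most 1 count in any library. The 14 markers of epithelial, endothelial, immune and neural cells summed to 2.77 to 16.3 CPM, most of it *Cd68*, and in WT the sum was 2.77 to 3.73 with DMSO, 6.398 to 9.70 with torin1 and 11.5 to 16.3 with MK-8722. The *Cd68* mean in WT was 1.90 CPM for the vehicle, 5.30 under torin1 and 11.8 under MK-8722, and in DKO 4.66, 6.46 and 8.92. Of the other immune markers, *Adgre1* had 0 counts in every library. Group means were at most 0.0582 CPM for *Ptprc* and 0.0301 for *Cd3e*. The epithelial marker *Cdh1* averaged 0.677 CPM in WT vehicle libraries and 1.29 in WT torin1 libraries. Whether other cells were present, or had a part in the drug results, was not tested. The 3 WT libraries of passage 11, 1 per treatment, stood apart in interferon-stimulated genes. *Oasl2*, one of these genes, was at 301 to 444 CPM in them, 7.54 to 56.6 in the other 9 WT libraries and 214 to 465 in the 12 *tfeb tfe3* DKO libraries. Leaving these 3 libraries out changed the call of a member in 1 comparison, which is given with *Cdkn2c*.

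Per transcript length, in TPM (abundance scaled for length and library), *Cdk4* had the highest level of the members and *Cdk6* the lowest in WT MEFs with DMSO. *Cdk4* averaged 971 ± 24.9 TPM (SD, n = 4), *Cdkn2a* 370.0 ± 39.0, *Ccnd3* 129 ± 6.12, *Ccnd1* 122 ± 7.45 and *Ccnd2* 68.3 ± 9.11. The others averaged 40.7 ± 7.93 TPM for *Cdkn2b*, 39.5 ± 5.20 for *Cdkn2c*, 35.4 ± 8.26 for *Cdkn1a*, 33.9 ± 4.08 for *Cdkn1b* and 24.4 ± 2.40 for *Cdk6*. The libraries of *Ccnd3* and *Ccnd1* overlapped, as did those of neighbours from *Cdkn2b* to *Cdkn1b*, so their order was not resolved. Much of the *Cdk4* level was assigned to short or intron-retaining transcripts, with 335 TPM on Cdk4-209 (retained intron) against 70.6 on the full-length Cdk4-201. From here on levels are in CPM, which is scaled for library size and not for length, and changes are log2 fold changes of CPM.

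**Figure D1:**
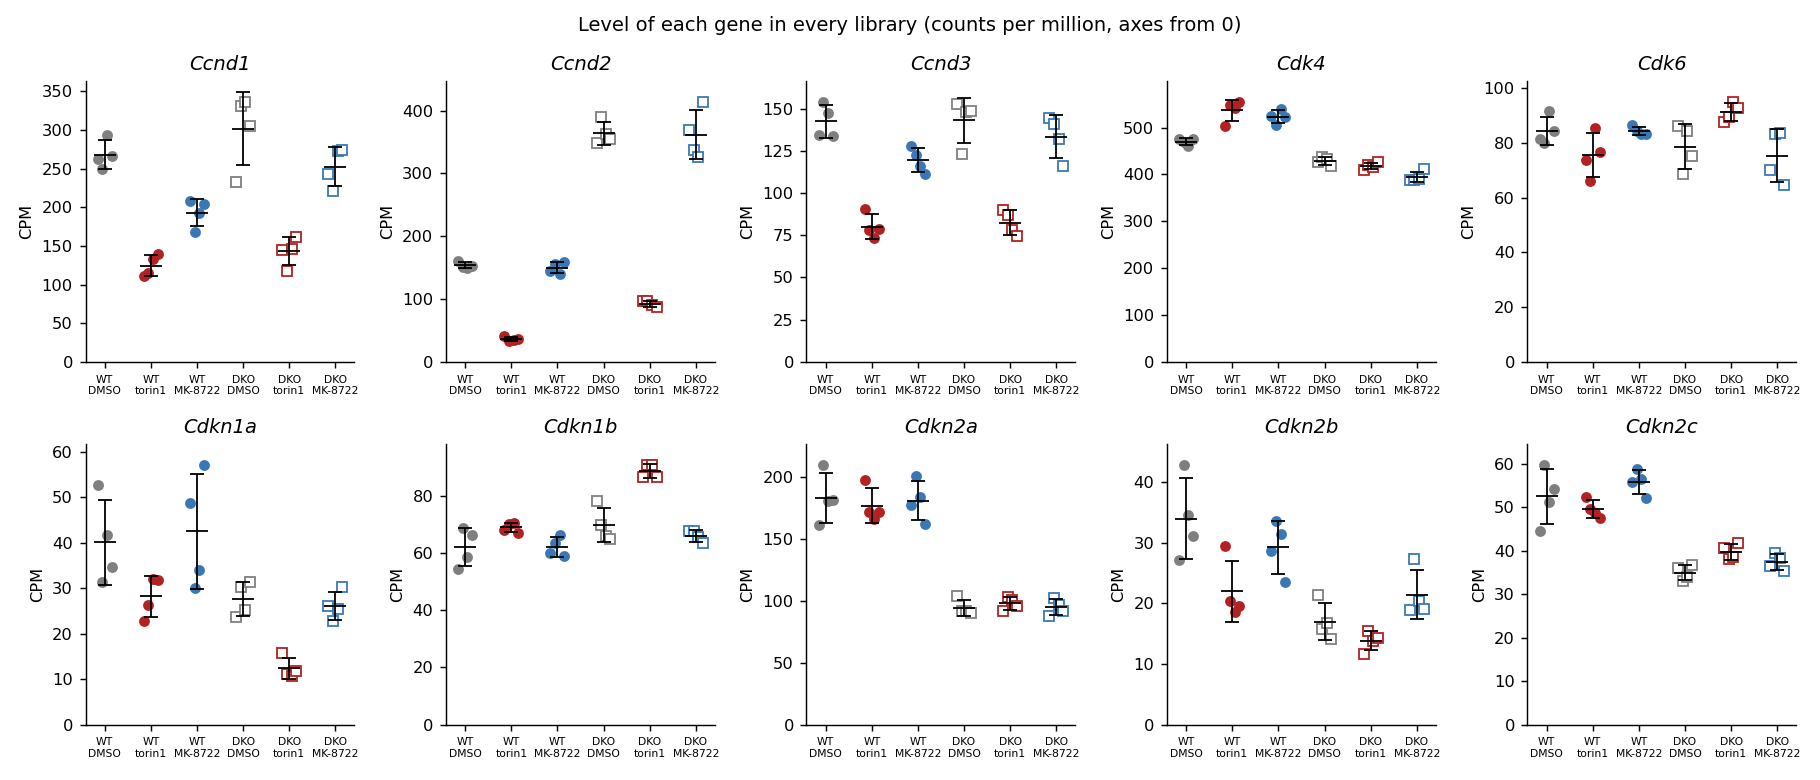
Level of the 10 genes in each of the 24 libraries, in CPM on linear axes that start at 0, by genotype and treatment. Points are libraries (filled circles WT, open squares DKO) and black bars the mean ± SD of 4. The 3 cyclins in the upper row are low in both torin1 groups, *Ccnd2* most of all (32.8 to 41.5 CPM in WT), and *Cdkn2a* and *Cdkn2c* are low in all DKO groups.

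Torin1 lowered all 3 D-type cyclins in both genotypes, and *Ccnd2* by the most. In WT, 5 of the 10 members were called with torin1, all lower, where 47.1% of all genes tested were called in either direction, 26.6% higher and 20.5% lower. In *tfeb tfe3* DKO, 4 were called lower and 1 higher, where 43.2% of all genes were called in either direction, 23% higher and 20.2% lower. A gene is called at an adjusted p under 0.05 (edgeR's quasi-likelihood test, Benjamini-Hochberg over all 15401 genes) and a fold change of at least 1.2. The median log2 fold change of the members with torin1 was -0.33 in WT and -0.17 in *tfeb tfe3* DKO, beside 0.05 and 0.02 over all genes tested. In bulk RNA, a lower share of cells that make a transcript and less of it per cell cannot be told apart. The libraries of the torin1 and DMSO groups did not overlap for 1 member higher and 3 lower in WT, where 54.1% of all genes did not overlap (28.4% higher, 25.7% lower), and for 3 higher and 4 lower in *tfeb tfe3* DKO, where 52.8% did not (26.7% higher, 26.1% lower).

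*Ccnd2*, on chromosome 6 (127125162 to 127152193, minus strand), encodes the D-type cyclin best known from lymphocytes and gonadal cells. In WT with DMSO it was at 161, 150.2, 152 and 152 CPM at passages 7, 8, 9 and 11, and with torin1 at 34.9, 36.2, 32.8 and 41.5 CPM. DKO libraries with DMSO were at 389.6, 355, 362 and 348 CPM at passages 8, 9, 10 and 11, and those with torin1 at 86.6, 96.9, 90.0 and 96.2 CPM. Every torin1 library lay far below every DMSO library of its genotype, and every DKO library lay above every WT library under the same treatment. The log2 fold change with torin1 was -2.08 in WT (SE 0.07, edgeR adjusted p = 8.53e-16) and -1.98 in *tfeb tfe3* DKO (SE 0.07, edgeR adjusted p = 2.31e-15). The drug effect in DKO minus that in WT, called the response difference below, was 0.11 with a 95% interval from -0.10 to 0.31 (edgeR adjusted p = 0.545).

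*Ccnd1*, on chromosome 7 (144929931 to 144939925, minus strand), encodes the D-type cyclin that mitogens induce in fibroblasts. Its WT libraries were at 262, 294, 266 and 249 CPM with DMSO and at 133, 139.7, 115 and 111 CPM with torin1 in order of passage. The DKO libraries were at 330.3, 306, 336 and 233 CPM with DMSO and at 162, 145, 146 and 118 CPM with torin1. The groups did not overlap in either genotype, and the torin1 library was lower at each passage. The log2 fold change was -1.10 in WT (SE 0.11, edgeR adjusted p = 1.17e-08) and -1.08 in *tfeb tfe3* DKO (SE 0.11, edgeR adjusted p = 1.87e-08), with a response difference of 0.03 (95% interval -0.30 to 0.35).

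*Ccnd3*, on chromosome 17 (47505051 to 47599691, plus strand), encodes the most widely expressed D-type cyclin and fell the least of the 3. It averaged 143 ± 9.89 CPM with DMSO and 80.2 ± 7.36 with torin1 in WT, and 143 ± 13.5 and 82.5 ± 7.43 CPM in *tfeb tfe3* DKO (SD, n = 4 each). The log2 fold changes were -0.83 (SE 0.08, edgeR adjusted p = 9.46e-09) and -0.79 (SE 0.08, edgeR adjusted p = 2.07e-08), and the response difference was 0.04 (95% interval -0.21 to 0.28). None of the 3 cyclins was called for a response difference with torin1, and their intervals leave room for a difference of up to 0.35 on the log2 scale.

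MK-8722 lowered *Ccnd1* in WT, and no other member was called with this drug in either genotype by the unblocked fit. In WT, 1 of 10 members was called, lower, where 16.1% of all genes were called, 10.3% higher and 5.87% lower. In DKO 0 of 10 were called, where 8.69% of all genes were, 5.47% higher and 3.21% lower. There, by the same edgeR test, 2 members, *Ccnd1* and *Cdk4*, had an unadjusted p under 0.05, and DESeq2's Wald test and limma voom also called 0. With passage within genotype as a block, *Cdkn2b* was called there (0.33, edgeR adjusted p = 0.00101), and by the false discovery rate without a fold minimum *Cdk4* was (-0.12, edgeR adjusted p = 0.00646). *Ccnd1* was at 204, 207, 192 and 168 CPM in WT with MK-8722, below all WT libraries with DMSO, with a log2 fold change of -0.47 (SE 0.11, edgeR adjusted p = 0.0019). In DKO it was at 274, 243, 272 and 221 CPM, which overlaps the DMSO libraries, with a log2 fold change of -0.25 (SE 0.11, edgeR adjusted p = 0.104). Without replicate 1 of DKO with DMSO, whose 233 CPM was the lowest of its group, that value was -0.36 and called (edgeR adjusted p = 0.0122). The response difference of *Ccnd1* with MK-8722 was 0.22 (95% interval -0.11 to 0.54), so the genotypes were not shown to differ. *Ccnd2* averaged 149.8 ± 9.01 CPM with MK-8722 in WT and 362 ± 39.0 in *tfeb tfe3* DKO (SD, n = 4 each), with log2 fold changes of -0.04 (95% interval -0.18 to 0.11) and -0.01 (95% interval -0.15 to 0.14). *Ccnd3* had a log2 fold change of -0.25 in WT (edgeR adjusted p = 0.02), which is under the fold of 1.2, and of -0.10 in DKO (edgeR adjusted p = 0.42). The WT value passed the fold without WT DMSO replicate 1 (-0.28) or 4 (-0.29) or WT MK-8722 replicate 1 (-0.30) or 2 (-0.27). Between the MK-8722 and DMSO libraries, 1 member was higher without overlap and 2 lower in WT, where 29.8% of all genes did not overlap, and 0 higher and 1 lower in *tfeb tfe3* DKO, where 21.1% did not.

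The summed level of the 3 cyclins per length, and the share of each, moved with these changes. The sum averaged 319.9 ± 11.2 TPM in WT with DMSO, 164 ± 11.0 with torin1 and 269 ± 14.2 under MK-8722, and 424 ± 11.3, 201 ± 8.93 and 402 ± 17.5 TPM in *tfeb tfe3* DKO (SD, n = 4 each). In WT with DMSO, *Ccnd3* held 40.4%, *Ccnd1* 38.2% and *Ccnd2* 21.3% of the sum. With torin1 in WT, the share of *Ccnd2* was 9.69 to 12.4% and that of *Ccnd3* 45.5 to 53.8%. With DMSO in DKO, *Ccnd2* held 33.4 to 39.5% and was the leading D-type cyclin by its mean of 37.1%, and with torin1 it held 23.2 to 25.9%. These shares depend on dividing by length, and the shares of estimated counts are given at the end.

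**Figure D2:**
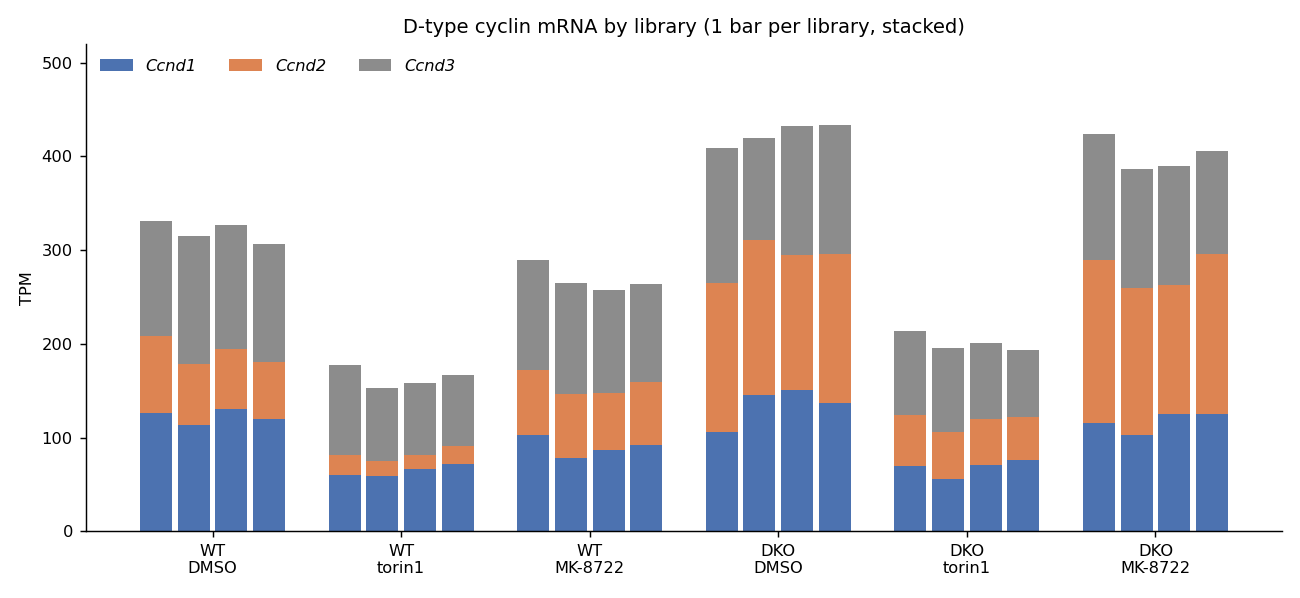
Level of the D-type cyclins in each library in TPM, stacked, with 1 bar per library and 4 bars per group on an axis that starts at 0. The torin1 bars are the lowest in each genotype (152 to 178 TPM in WT), and the orange segment of *Ccnd2* is larger in the DKO groups.

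No drug effect on a kinase was called within a genotype by the unblocked fit. The response difference was called for *Cdk4* with MK-8722 and for *Cdk6* with torin1. Neither call held in edgeR's test against a fold of 1.2. *Cdk4* lies on chromosome 10 (127063534 to 127067920, plus strand). Its WT libraries were at 475, 460.2, 476 and 469.5 CPM with DMSO, 541, 555, 548 and 504.3 with torin1, and 523, 524, 539.7 and 506 under MK-8722, in order of passage. Its DKO libraries were at 437, 418, 432 and 427 CPM with DMSO, 426, 409, 417 and 419 with torin1, and 411, 389, 390.5 and 387 under MK-8722. Both drug groups lay above the DMSO group in WT without overlap, and in *tfeb tfe3* DKO the MK-8722 group lay below it without overlap.

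The log2 fold change of *Cdk4* in WT was 0.19 with torin1 (SE 0.03, edgeR adjusted p = 7.59e-06) and 0.15 with MK-8722 (SE 0.03, edgeR adjusted p = 0.000359). In DKO it was -0.04 with torin1 (edgeR adjusted p = 0.308) and -0.12 with MK-8722 (SE 0.03, edgeR adjusted p = 0.00646). None of these reached a fold of 1.2, so none was called. The response difference was -0.27 with MK-8722 (SE 0.04, edgeR adjusted p = 0.000126) and -0.23 with torin1 (SE 0.04, edgeR adjusted p = 0.000611), the latter under the fold. With MK-8722, *Cdk4* was the only member called for it by the unblocked fit, where 5.49% of all genes were called, 1.42% higher and 4.08% lower. At each of 4 passages, *Cdk4* was higher with either drug in WT and lower with either drug in *tfeb tfe3* DKO. The called response sits at the fold threshold, with -0.25 to -0.26 and adjusted p up to 0.000592 without WT DMSO replicate 3 or WT MK-8722 replicate 1, 3 or 4. With library size alone in place of TMM, *Cdk4* was called with torin1 in WT (0.28) and for the torin1 response (-0.28). The 3′ end of *Cdk4* shares 641 bases with *Tspan31* on the other strand, and the strand setting of the counting is not given in the sources used here.

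*Cdk6*, on chromosome 5 (3341485 to 3531008, plus strand), was the only member called for a response difference with torin1 by the unblocked fit. Of all genes, 11.0% were called there, 4.68% higher and 6.33% lower. With passage within genotype as a block, *Cdkn1a*, *Cdkn2b* and *Cdkn2c* were called as well. *Cdk6* averaged 84.2 ± 5.16 CPM with DMSO and 75.4 ± 8.07 with torin1 in WT, and 78.6 ± 8.24 and 91.2 ± 3.27 CPM in *tfeb tfe3* DKO (SD, n = 4 each). The log2 fold change was -0.16 in WT (edgeR adjusted p = 0.0989) and 0.21 in DKO (edgeR adjusted p = 0.03, under the fold, and 0.27 and called without DKO DMSO replicate 1), and the response difference was 0.37 (SE 0.12, edgeR adjusted p = 0.0313). It missed the threshold without any 1 of 5 libraries, which were WT DMSO replicate 3 (0.34, edgeR adjusted p = 0.0622), WT torin1 replicate 2 (0.31, edgeR adjusted p = 0.0776), DKO DMSO replicates 2 (0.31, edgeR adjusted p = 0.0746) and 4 (0.35, edgeR adjusted p = 0.0681), and DKO torin1 replicate 3 (0.36, edgeR adjusted p = 0.0541). It also missed it with library size alone (0.32, edgeR adjusted p = 0.0701) and with a transcript length offset, at a larger value (0.53, edgeR adjusted p = 0.0551). With MK-8722 the log2 fold change was 0.00 in WT (95% interval -0.17 to 0.17) and -0.06 in DKO (95% interval -0.23 to 0.11).

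**Figure D3:**
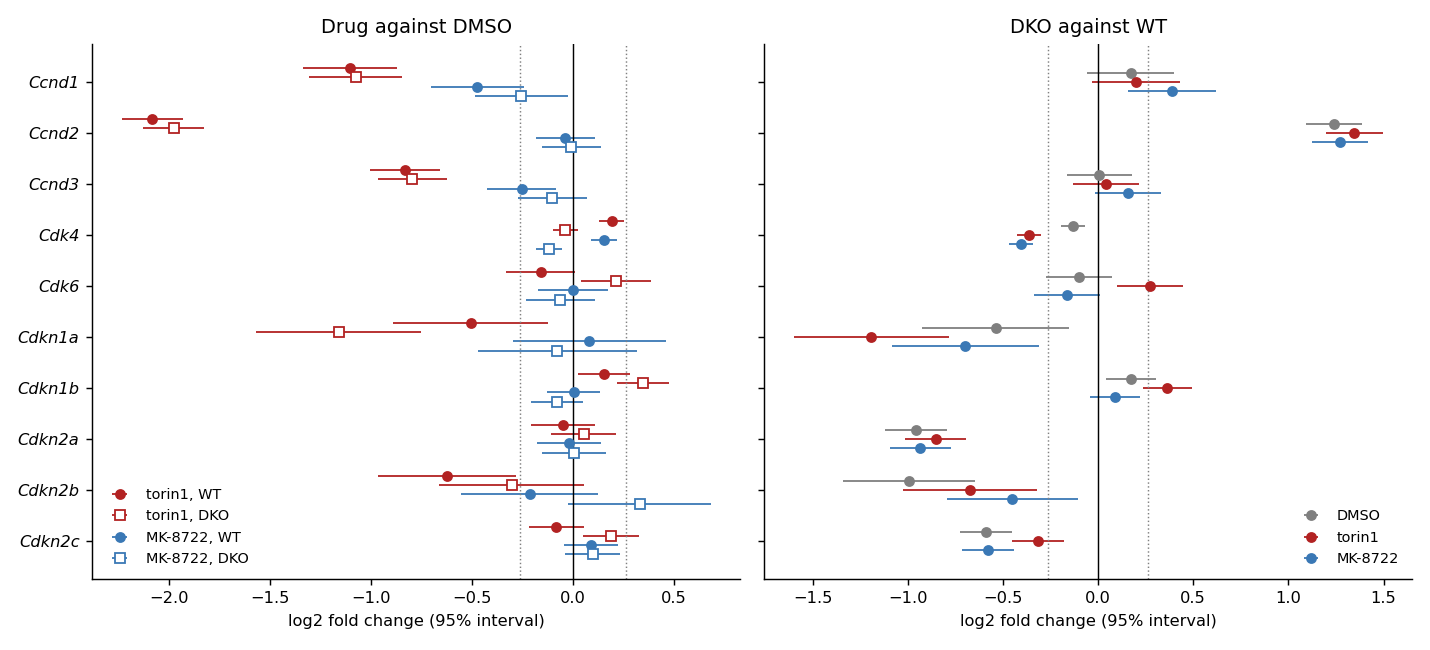
Log2 fold changes of the 10 genes with 95% intervals, on the left for each drug against DMSO (filled circles WT, open squares DKO) and on the right for DKO against WT under each treatment. Dotted lines mark a fold of 1.2 either way. *Ccnd2* with torin1 (-2.08 and -1.98) and *Ccnd2* in DKO against WT (1.24 to 1.35) lie farthest from 0.

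The CIP/KIP genes moved in opposite directions with torin1 in *tfeb tfe3* DKO. *Cdkn1a* (p21, an early target of p53), on chromosome 17 (29090976 to 29100727, plus strand), was at 52.6, 41.6, 34.6 and 31.3 CPM in WT with DMSO, 32.0, 31.7, 26.3 and 22.7 after torin1 and 57.1, 48.7, 33.9 and 30.0 with MK-8722, in order of passage. Its DKO libraries were at 30.3, 31.3, 25.2 and 23.5 CPM with DMSO and 11.8, 15.7, 10.7 and 11.1 with torin1. In DKO the torin1 libraries lay below all DMSO libraries, whereas in WT the groups overlapped although the torin1 library was lower at each of 4 passages. *Cdkn1a* fell by 0.51 on the log2 scale in WT (SE 0.18, edgeR adjusted p = 0.0202) and by 1.16 in *tfeb tfe3* DKO (SE 0.19, edgeR adjusted p = 2.12e-05). The WT call was lost without WT DMSO replicate 1 (-0.35, edgeR adjusted p = 0.107), without WT torin1 replicate 1 (-0.45, edgeR adjusted p = 0.0565) or 2 (-0.48, edgeR adjusted p = 0.0508), and with library size alone (-0.42, edgeR adjusted p = 0.0552). The response difference was -0.65 (SE 0.27, edgeR adjusted p = 0.107), and it was called with passage within genotype as a block (-0.66, edgeR adjusted p = 0.000161) and without WT DMSO replicate 1 (-0.80, edgeR adjusted p = 0.0389). With MK-8722 it was 0.08 in WT (95% interval -0.30 to 0.46) and -0.08 in DKO (95% interval -0.47 to 0.32).

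*Cdkn1b* (p27), on chromosome 6 (134920401 to 134925513, plus strand), is the inhibitor that FOXO factors are known to raise in quiescent cells. It was at 69.9, 65.0, 66.0 and 78.2 CPM in *tfeb tfe3* DKO with DMSO and at 86.5, 86.7, 90.7 and 90.9 CPM with torin1, without overlap. The log2 fold change was 0.35 (SE 0.06, edgeR adjusted p = 4.79e-05), the only member called higher with torin1. This call was lost in edgeR's test against a fold of 1.2 (adjusted p = 0.0893). In WT it averaged 62.0 ± 6.60 CPM with DMSO and 69.0 ± 1.71 with torin1 (SD, n = 4 each), a log2 fold change of 0.15 (edgeR adjusted p = 0.0363) under the fold. The response difference of 0.19 (95% interval 0.01 to 0.38, edgeR adjusted p = 0.155) was not called.

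Among the INK4 genes, *Cdkn2b* (p15, known as a target of TGF-beta) fell with torin1 in WT, and the sums over all transcripts of *Cdkn2a* and *Cdkn2c* were not called with either drug. *Cdkn2b*, on chromosome 4 (89306299 to 89311039, minus strand), was at 27.2, 34.6, 31.2 and 42.9 CPM in WT with DMSO and at 18.6, 19.6, 20.4 and 29.5 CPM with torin1. The torin1 library of passage 11 lay above the DMSO library of passage 7, so the ranges overlapped, but torin1 was lower at every passage. Its log2 fold change was -0.62 in WT (SE 0.16, edgeR adjusted p = 0.002) and -0.30 in *tfeb tfe3* DKO (SE 0.17, edgeR adjusted p = 0.138). With MK-8722 it was -0.21 in WT (edgeR adjusted p = 0.351) and 0.33 in DKO (edgeR adjusted p = 0.177), where its level was 19.1, 18.98, 20.3 and 27.4 CPM beside 15.8, 14.1, 16.7 and 21.4 with DMSO, higher at 4 of 4 passages. With passage within genotype as a block, *Cdkn2b* was called in DKO with torin1 (-0.29, edgeR adjusted p = 0.00174) and with MK-8722 (0.33, edgeR adjusted p = 0.00101), and for the response difference with torin1 (0.33, edgeR adjusted p = 0.017) and MK-8722 (0.54, edgeR adjusted p = 0.00036).

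*Cdkn2c* (p18), on chromosome 4 (109660876 to 109667189, minus strand), averaged 52.5 ± 6.34 CPM with DMSO, 49.6 ± 2.09 with torin1 and 55.9 ± 2.80 under MK-8722 in WT (SD, n = 4 each). In DKO it averaged 34.9 ± 1.74, 39.8 ± 1.80 and 37.4 ± 1.85 CPM. With torin1 in DKO the groups did not overlap, and the log2 fold change of 0.19 (SE 0.07, edgeR adjusted p = 0.0179) was under the fold of 1.2 and was called with a transcript length offset (0.29, edgeR adjusted p = 0.00255). Its torin1 response difference of 0.27 (SE 0.09, edgeR adjusted p = 0.0501) sat at the threshold and was called without the WT libraries of passage 11 (0.27, edgeR adjusted p = 0.029), with DESeq2's Wald test (0.29, adjusted p = 0.0216) and with the passage block (0.27, edgeR adjusted p = 0.00775). It was also called without any 1 of WT DMSO replicate 1, WT torin1 replicates 1 and 3, DKO DMSO replicate 1 and DKO torin1 replicate 2 (0.30 to 0.35). *Cdkn2a*, on chromosome 4 (89274471 to 89294653, minus strand), averaged 183 ± 20.2, 177 ± 13.9 and 181 ± 15.97 CPM for the vehicle, torin1 and MK-8722 in WT, and 94.2 ± 6.44, 97.7 ± 4.90 and 94.6 ± 6.31 CPM in *tfeb tfe3* DKO (SD, n = 4 each). Its drug effects ranged from -0.05 to 0.05 on the log2 scale, with 95% intervals within -0.21 and 0.21.

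Behind this flat sum, the 2 transcripts of *Cdkn2a* moved apart with torin1 in WT. Cdkn2a-201 starts with the first exon of p16 (89281986 to 89282192) and Cdkn2a-202 with that of ARF (89294334 to 89294653). The p16 transcript was at 78.9, 111, 85.9 and 90.7 TPM in WT replicates 1 to 4 with DMSO and at 149, 129, 128 and 127 TPM with torin1. The ARF transcript was at 247, 310.1, 279 and 278 TPM with DMSO and at 278, 239.6, 227 and 245 TPM with torin1. All torin1 libraries were higher than all DMSO libraries for p16, and the groups overlapped for ARF. The share of p16 in the gene's TPM was 23.5 to 26.3% with DMSO, 34.2 to 36.0% with torin1 and 27.9 to 31.4% with MK-8722 in WT, without overlap between the 3 groups. In DKO the share was 24.7 to 29.1%, 27.0 to 29.4% and 25.7 to 28.8%, and these ranges overlapped.

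A fit of 57945 transcripts, added after these levels were seen, gave a log2 fold change with torin1 in WT of 0.43 for p16 (SE 0.11, edgeR adjusted p = 0.00413) and -0.28 for ARF (SE 0.08, edgeR adjusted p = 0.0139), both called, where 22.8% of transcripts were. ARF was not called when scaled by library size alone (-0.16, edgeR adjusted p = 0.123) or with at least 10 counts required in every library (-0.22, edgeR adjusted p = 0.033, under the fold). Nor was it called without WT DMSO replicate 2 (-0.22, edgeR adjusted p = 0.0729), without WT torin1 replicate 2 or 3 (-0.25 each, under the fold) or without the WT libraries of passage 11 (-0.26, under the fold). In edgeR's test against a fold of 1.2, neither p16 (adjusted p = 0.109) nor ARF (adjusted p = 0.519) was called with torin1 in WT. In DKO, where 22.3% of transcripts were called, the values were 0.18 (edgeR adjusted p = 0.293) and 0.04 (edgeR adjusted p = 0.774), and the response differences were -0.26 (edgeR adjusted p = 0.564) and 0.32 (edgeR adjusted p = 0.2), where 1.87% of transcripts were called. ARF was called for this difference with the passage block (0.32, edgeR adjusted p = 0.00526). Cdkn2c-201, a transcript of *Cdkn2c* with a later start, was called higher with torin1 in WT (0.58, SE 0.16, edgeR adjusted p = 0.0106) and in DKO (0.74, SE 0.17, edgeR adjusted p = 0.00211). The WT call was lost without WT DMSO replicate 1 (0.44, edgeR adjusted p = 0.0509) and in edgeR's test against a fold of 1.2 (adjusted p = 0.0666). The share of Cdkn2c-201 in *Cdkn2c* was 21.99 to 29.5% with DMSO and 31.8 to 40.5% with torin1 in WT, and 23.2 to 27.4% and 29.9 to 38.9% in DKO. Reads in shared exons are divided by salmon's model, and the error of that division is not in these values.

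**Figure D4:**
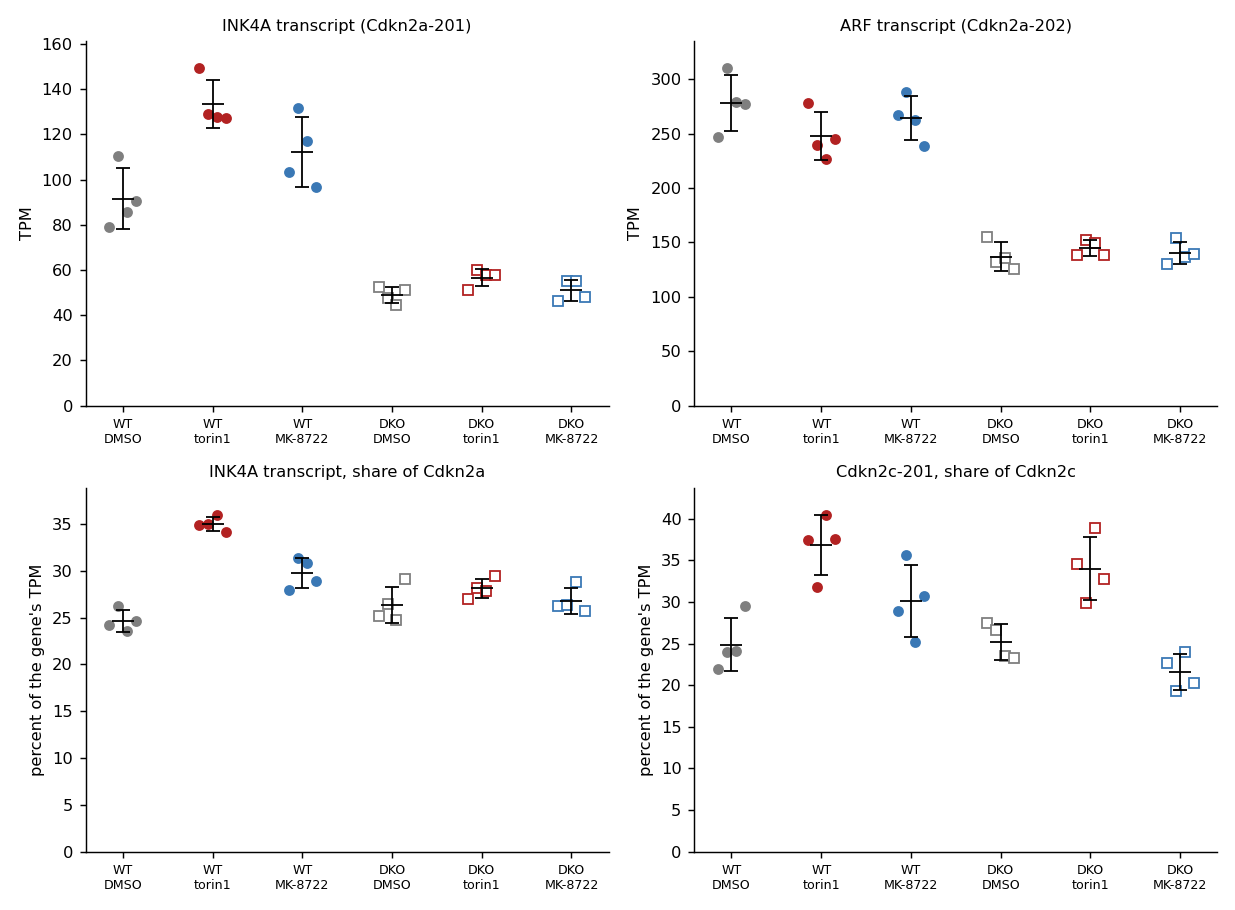
Transcripts of the INK4 genes by library, with the level of p16 (Cdkn2a-201) and ARF (Cdkn2a-202) in TPM above and the share of Cdkn2a-201 and Cdkn2c-201 in their gene's TPM below, on axes from 0. Points are libraries and bars the mean ± SD of 4. The share of p16 is 34.2 to 36.0% in WT with torin1 and at most 31.4% in every other library.

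Between the genotypes, *Ccnd2* was higher and the 3 INK4 members and *Cdkn1a* were lower in *tfeb tfe3* DKO under each treatment. *Cdkn2d*, an INK4 gene outside the set, went the other way. Its log2 fold changes were 0.42 with DMSO and 0.85 with MK-8722, both called higher, and 0.26 with torin1, not called. With DMSO, 1 member was called higher and 4 lower, where 48.2% of all genes were called in either direction, 23.5% higher and 24.6% lower. With torin1 the counts were 3 and 5 (51.8% of all genes, 23.97% higher and 27.8% lower) and with MK-8722 2 and 5 (48.7%, 23.3% higher and 25.4% lower). The libraries did not overlap for 1 member higher and 4 lower with DMSO, where 56.8% of all genes did so, for 3 and 5 with torin1 (60.3%) and for 2 and 3 with MK-8722 (54.7%). *Ccnd2* had a log2 fold change of 1.24 with DMSO (SE 0.07, edgeR adjusted p = 5.73e-13), 1.35 with torin1 and 1.27 with MK-8722. *Ccnd1* was 0.17 with DMSO (edgeR adjusted p = 0.18) and called with MK-8722 (0.39, SE 0.11, edgeR adjusted p = 0.00369), and *Ccnd3* was called under no treatment (0.01 to 0.16). *Ccnd1* was also called with DMSO without DKO DMSO replicate 1 (0.28, edgeR adjusted p = 0.02) and with torin1 without DKO torin1 replicate 2 (0.29, edgeR adjusted p = 0.024).

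*Cdkn2a* was lower in *tfeb tfe3* DKO by 0.96 on the log2 scale with DMSO, at 90.1 to 104 CPM beside 161 to 209.8 in WT. Its log2 fold changes were -0.96 with DMSO (SE 0.08, edgeR adjusted p = 2.22e-10), -0.85 with torin1 and -0.93 with MK-8722, and p16 and ARF were both called lower under each treatment (-0.71 to -1.17), where 24.8, 27.7 and 25.6% of transcripts were called with DMSO, torin1 and MK-8722 respectively. *Cdkn2b* had -0.995 with DMSO (SE 0.17, edgeR adjusted p = 1.59e-05), -0.67 with torin1 and -0.45 with MK-8722 (edgeR adjusted p = 0.0204), the last of which was lost without WT MK-8722 replicate 2 or 3 or DKO MK-8722 replicate 1, 3 or 4 (-0.39 to -0.42, edgeR adjusted p 0.0518 to 0.0625). *Cdkn2c* had -0.59 with DMSO (SE 0.07, edgeR adjusted p = 4.84e-08), -0.32 with torin1 and -0.58 with MK-8722. *Cdkn1a* had -0.54 with DMSO (SE 0.18, edgeR adjusted p = 0.014), which was lost without WT DMSO replicate 1 (-0.38, edgeR adjusted p = 0.0801), -1.19 with torin1 (SE 0.19, edgeR adjusted p = 1.04e-05) and -0.70 with MK-8722. *Cdk4* was called lower with torin1 (-0.36) and MK-8722 (-0.41), and with DMSO it stood at -0.13, under the fold. *Cdkn1b* (0.36) and *Cdk6* (0.27) were called higher with torin1 only. The *Cdk6* value dropped under the fold or lost its call without WT torin1 replicate 2 (0.21) and with library size alone (0.15, edgeR adjusted p = 0.12), which also took *Cdkn1b* under the fold (0.24).

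*Cdkn2a* and *Cdkn2b* are neighbours on chromosome 4, and 7 further genes around them were looked up. *Hacd4* (88396144 to 88438928), a fatty acid elongation enzyme, had a log2 fold change of -2.69 in DKO against WT with DMSO (SE 0.20, edgeR adjusted p = 9.81e-11), *Klhl9* -0.45 (SE 0.05, edgeR adjusted p = 2.38e-08) and *Mtap*, an enzyme of methionine salvage, -0.34 (SE 0.06, edgeR adjusted p = 3.57e-05). *Elavl2* (91250763 to 91400785) had 80 to 128 counts in every WT library and 0 or 1 in every DKO library, and *Dmrta1*, with 4 to 11 counts in WT and at most 2 in DKO, was too low to test. *Focad* and *Mllt3* were not called with DMSO. The 4 called (*Elavl2* included) were all lower, and 24.6% of all genes were called lower.

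The torin1 libraries also differed from the MK-8722 libraries. In WT, 5 members were lower with torin1 than with MK-8722 and 0 higher (44.9% of all genes called, 24.9% higher and 20.02% lower), and in DKO 5 were lower and 2 higher (40.4%, 21.1% higher and 19.3% lower). *Ccnd2* had -2.04 and -1.97, *Ccnd1* -0.63 and -0.82, *Ccnd3* -0.58 and -0.69, *Cdkn1a* -0.59 and -1.08, and *Cdkn2b* -0.41 and -0.63, in WT and DKO. The *Cdkn2b* value in WT lost its call without WT torin1 replicate 2, 3 or 4 or WT MK-8722 replicate 2 or 3 (-0.35 to -0.38) and with library size alone (-0.33), and *Cdkn1a* in WT without WT MK-8722 replicate 4 (-0.42, edgeR adjusted p = 0.0529). In DKO, *Cdkn1b* (0.43) and *Cdk6* (0.28) were higher with torin1, and *Cdk6* fell under the fold without DKO MK-8722 replicate 1 (0.24) or 4 (0.22).

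Within WT, *Cdkn1a* was ordered by passage under each treatment. *Cdkn2a* and *Cdkn2c* were so with DMSO and MK-8722 but not torin1, and *Cdkn2b* with torin1 and MK-8722 but not DMSO. *Cdkn1b* was ordered with DMSO only, at 54.5, 58.5, 66.2 and 68.7 CPM at passages 7, 8, 9 and 11. *Cdkn1a* was highest at passage 7 and lowest at passage 11 under each treatment. *Cdkn2a* went the other way, with 161, 180.0, 181 and 209.8 CPM at passages 7, 8, 9 and 11 with DMSO, and was highest at passage 11 in all 6 groups. *Cdkn2b* was highest at passage 11 in all 6 groups as well, and *Cdkn2c* with DMSO stood at 44.6, 51.3, 54.2 and 59.9 CPM in WT. With 1 library per passage and group these are descriptions without a test, and in WT passage 11 is also the passage with high interferon-stimulated genes.

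**Figure D5:**
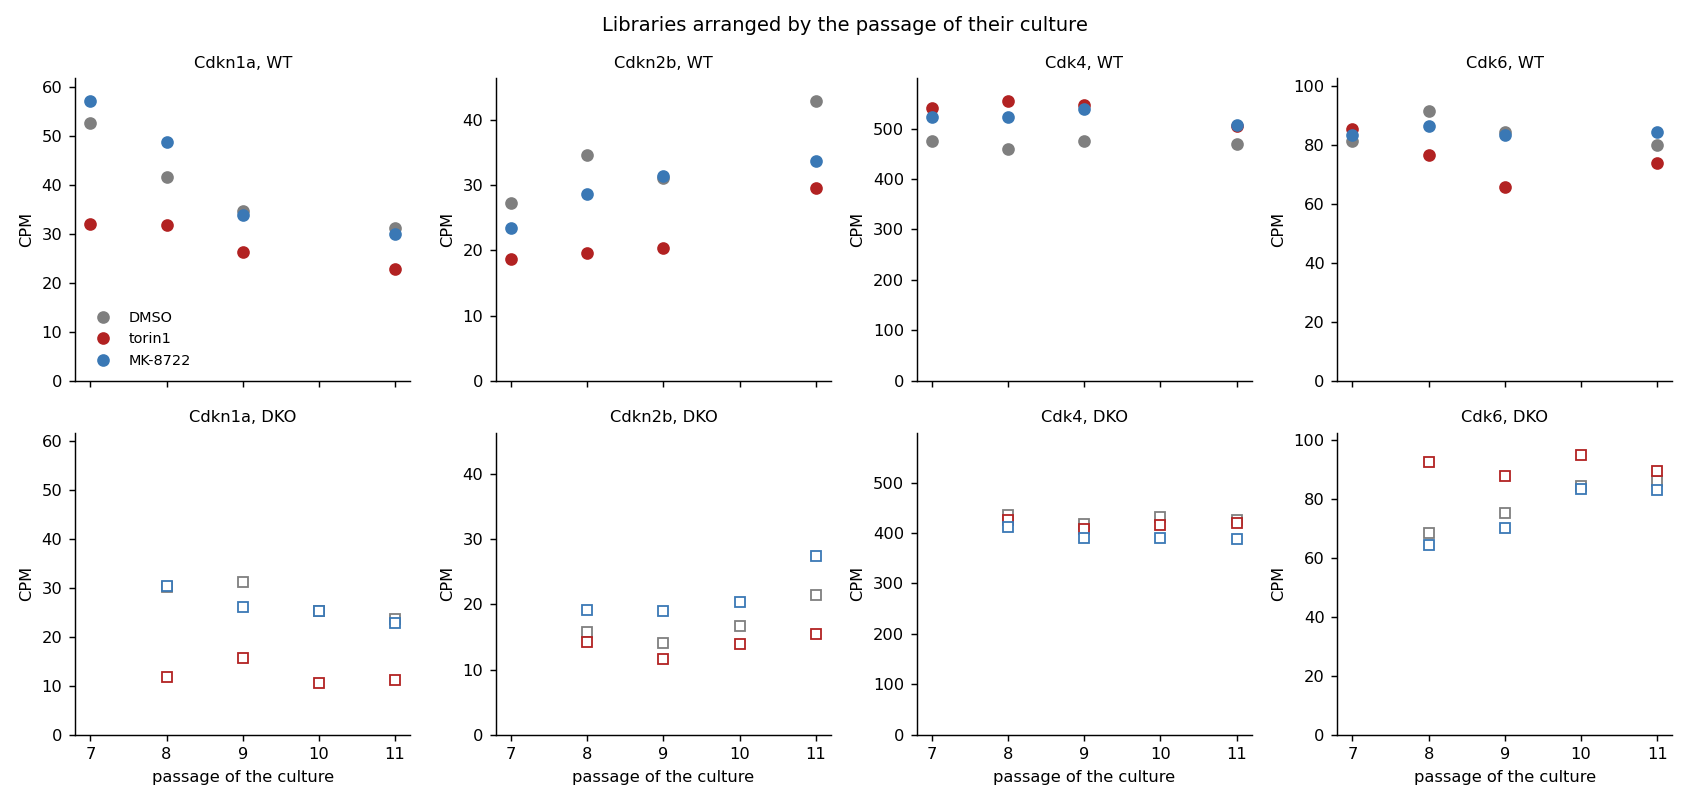
Level of *Cdkn1a*, *Cdkn2b*, *Cdk4* and *Cdk6* in CPM against the passage of the culture, WT above and DKO below, with 1 point per library and the treatment by colour (grey DMSO, red torin1, blue MK-8722) on axes from 0. *Cdkn1a* in WT with DMSO stands at 52.6 CPM at passage 7 and 31.3 at passage 11, and *Cdkn2b* is highest at passage 11 in every group.

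Across the 24 libraries, with the mean of each genotype taken off, the D-type cyclins varied together, with Pearson r of 0.93 for *Ccnd2* and *Ccnd3*, 0.89 for *Ccnd1* and *Ccnd2* and 0.86 for *Ccnd1* and *Ccnd3*. *Cdkn1a* and *Cdkn1b* had r = -0.91. These points share the treatments, so the values are descriptions. The genes most like each member over the same libraries, out of 11514 compared, were *Mthfd2* (r = 0.996) and *Siah2* (0.991) for *Ccnd2*, *Dhx38* (0.981) and *Pacsin2* (0.978) for *Ccnd1*, and *Rtn3* (0.979) and *Sec61b* (0.972) for *Ccnd3*. For the kinases they were *Spns1* (0.864) and *Vps33a* (0.861) with *Cdk4* and *Frmd8* (0.841) and *Plaa* (0.838) with *Cdk6*. For the CIP/KIP genes they were *Slc5a6* (0.952) and *Fndc4* (0.927) with *Cdkn1a* and *Zc2hc1a* (0.921) and *Ptprk* (0.911) with *Cdkn1b*. The INK4 genes had *Tspo* (0.89) and *Tgm2* (0.878) for *Cdkn2a*, *Tpm2* (0.891) and *Fads2* (0.891) for *Cdkn2b* and *Adamts6* (0.817) and *Fmn1* (0.809) for *Cdkn2c*.

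Genes that act next to the members in G1 and S phase were read from lists for comparison. With torin1, 26.6% of all genes tested were called higher and 20.5% lower in WT, and 23% and 20.2% in DKO, and the lists are described by their counts beside these shares. Of 14 later cyclins, kinases and their phosphatases tested, 2 were called higher and 7 lower with torin1 in WT and 1 higher and 5 lower in *tfeb tfe3* DKO. *Ccne1*, the cyclin that follows the D-type cyclins, fell by 1.44 on the log2 scale in WT and by 0.95 in DKO, and *Ccne2* fell by 0.95 and 0.53. Both had a response difference (0.49, SE 0.13, edgeR adjusted p = 0.0102 for *Ccne1* and 0.41, SE 0.10, edgeR adjusted p = 0.00872 for *Ccne2*). *Cdc25a*, the phosphatase that activates CDK2, fell by 0.72 and 0.61. Of 18 pocket protein and E2F genes, 4 were higher and 8 lower in WT and 5 and 8 in DKO, among them *E2f2* (-1.69 and -1.06) and *Rb1* (0.92 and 0.86), the retinoblastoma gene. Of 16 E2F target genes, 3 were higher and 7 lower in WT and 4 and 6 in DKO, among them *Rrm2* (-0.96 and -0.39), the ribonucleotide reductase subunit, and *Cdt1* (0.54 and 0.62), a replication licensing factor.

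Of 15 genes for the turnover of cyclins and inhibitors, 2 were higher and 5 lower with torin1 in WT and 4 and 4 in *tfeb tfe3* DKO. *Skp2*, the ubiquitin ligase subunit that targets p27, fell by 0.91 and 0.66 on the log2 scale. Of 24 upstream regulators tested, 7 were higher and 6 lower in WT and 9 and 6 in DKO, with *Foxo3*, a FOXO factor, at 1.103 and 1.28 and *Egr1* at -0.66 and -1.52. Between the genotypes with DMSO, 13 regulators were called higher and 4 lower in DKO, where 23.5% and 24.6% of all genes were. *Tbx3*, a T-box repressor known to act on the *Cdkn2a* locus, had 988 to 1320 counts per library in WT with DMSO and 1 to 3 in DKO, and *Junb*, an AP-1 factor, had a log2 fold change of 1.23 (SE 0.09, edgeR adjusted p = 3.65e-11). Of 17 p53 targets, 3 were higher and 8 lower with torin1 in WT and 2 and 11 in DKO, with *Aen* at -1.32 and -1.10 and *Pmaip1* at 0.97 and 1.41. Of the remaining inhibitors of the families, *Cdkn1c* (p57) had -3.01 in DKO against WT with DMSO (SE 0.27, edgeR adjusted p = 1.37e-09) and *Cdkn2d* (p19) 0.42 (SE 0.12, edgeR adjusted p = 0.00475).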

How the data were processed

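Estimated counts and TPM per gene and transcript were deposited by the authors, whose reads carried unique molecular identifiers and passed through nf-core/rnaseq (STAR, salmon, GRCm38). The deposited estimated counts carry no scaling and were rounded here. The deposited TPM values entered no test. The study's own edgeR analysis took out a batch effect through limma that is not described. The labels give 1 batch, so none was taken out here. All per-sample columns matched a sample (0 left over).

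Counts of 24 libraries were fitted with 1 mean per group in edgeR 4.0.16 (R 4.3.3) by the quasi-likelihood method in its older form, with TMM factors of 0.95 to 1.08, filterByExpr with a minimum count of 10 and 18 residual degrees of freedom. Counts varied between replicates with a biological coefficient of variation of 10.7%. The standard error is the log2 fold change divided by the square root of F. Calls need an adjusted p under 0.05 and a fold of 1.2, as in the study. DESeq2 1.42.0 and limma 3.58.1 gave alternatives. The fits were tested on simulated data.

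The members and lists were chosen with earlier results of these data known. Named genes are the members, *Tfeb* and *Tfe3*, up to 4 called genes per list, all listed neighbours of *Cdkn2a*, and the 2 genes most correlated with each member. The genes named from a list are examples and not in every case those with the largest change. *Thy1*, *Postn*, *Cd68*, *Adgre1*, *Ptprc*, *Cd3e*, *Cdh1* and *Oasl2* and the passage 11 libraries were singled out after their values were seen. The transcript fit was added then too. Coordinates are GENCODE release M21 on GRCm38, which held 55141 of 55487 gene identifiers. Of the members, 6 overlap a gene on the other strand. Replicate numbers do not stand for the same passage in each group and were not used as a pairing in the unblocked fit. Of 60 pairs with the same number, 13 correlated over 0.1 (median 0.044), against 21 of 180 pairs with other numbers (median -0.011). Libraries of the same genotype and passage deviated together more often, with 17 of 24 pairs over 0.1 (median 0.157) against 7 of 72 pairs of other passages (median -0.0395). The labels do not say what a passage shares, and passage within genotype entered as a block only in an alternative. Each passage of a genotype has 1 library per treatment, so the unblocked fit leaves out a pairing of the drug groups. Replicates are cultures of 1 line, and p-values measure the spread between them. No pair of replicates was as close as counting noise allows (chi-square per degree of freedom 3.8 to 39.2, 36 pairs).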

Additional observations from a re-analysis of the deposited data

Results flagged for a closer look

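There were 3 response differences that stood out between the genotypes by their edgeR interaction test. Of these, *Cdk4* had -0.23 with torin1 (edgeR adjusted p = 0.000611) and -0.27 with MK-8722 (edgeR adjusted p = 0.000126), and *Cdk6* had 0.37 with torin1 (edgeR adjusted p = 0.0313).

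In 5 of 60 groups of 4 libraries, 1 library lay far from the other 3 by Dixon's test, where chance gives about 1 in 20. *Ccnd3* was at 123 CPM in replicate 2 of DKO with DMSO, the lowest of its group, and *Cdk4* at 411 in replicate 4 of DKO with MK-8722, the highest. *Cdkn2a* was at 104 CPM in replicate 1 of DKO with DMSO, and *Cdkn2b* at 29.5 in replicate 1 of WT with torin1 and 27.4 in replicate 2 of DKO with MK-8722, each the highest of its group. The *Cdkn2a* library and both *Cdkn2b* libraries came from passage 11.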

How the results depend on the processing

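Of the 45 calls of a member in a comparison, 31 were the same under every alternative run and 14 were lost under at least 1, and no direction of a called result reversed. Another 22 results that were not called were called under at least 1 alternative. A further 43 were called under no setting, and 20 of them changed sign, at a log2 fold change of at most 0.11. With the false discovery rate alone, 3 members were called with MK-8722 in WT, 1 with MK-8722 in DKO and 2 for the torin1 response. A test against a fold of 1.2 called 0 with MK-8722 in WT, 0 for the torin1 response and 0 for the MK-8722 response. It also lost *Cdkn1a* in WT and *Cdkn1b* in DKO with torin1. In DKO against WT it lost *Cdkn1a* with DMSO, *Cdk6* and *Cdkn2c* with torin1, and *Ccnd1* and *Cdkn2b* with MK-8722. Between torin1 and MK-8722 it lost *Cdkn2b* in WT and *Cdk6* in DKO. Of the transcripts of *Cdkn2a* and *Cdkn2c*, it lost p16, ARF and Cdkn2c-201 with torin1 in WT. It also lost Cdkn2c-201 and Cdkn2c-202 in DKO against WT under torin1. For the torin1 response, DESeq2's size factors gave 2, its Wald test 2, the length offset 0, and leaving out the WT libraries of passage 11 (chosen after seeing the data) 2. With passage within genotype as a block, 1 was called with MK-8722 in DKO, 4 for the torin1 response and 2 for the MK-8722 response. The replicate number as a block changed no count of members (5 with torin1 in WT, 5 in DKO), and it moved Cdkn2c-201 in DKO against WT under torin1 to an adjusted p of 0.0509. Leaving out single libraries gave 1 to 2 members with MK-8722 in WT, 0 to 1 in DKO, 0 to 3 for the torin1 response and 0 to 1 for the MK-8722 response. Library size alone moved the members' median by -0.13 in DKO against WT under torin1.

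By estimated counts in place of TPM, the shares of *Ccnd1*, *Ccnd2* and *Ccnd3* were 47.4, 27.3 and 25.3% in WT with DMSO, 51.6, 15.1 and 33.3% with torin1 and 41.7, 32.4 and 25.9% with MK-8722. In DKO they were 37.1, 45.1 and 17.8%, 44.9, 29.1 and 26.0%, and 33.8, 48.3 and 17.9%.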
